A study of Homo sapiens with 12 samples.

Results

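The transcripts of 46 DNA damage checkpoint and repair genes were examined in granulosa cell tumor (GCT) cell lines treated with 77-39, an inhibitor of the mitochondrial deacetylase SIRT3. The 46 genes were chosen by name from the 58735 genes of the table, and they were placed in 11 groups by the role of their proteins. KGN, derived from a GCT of the adult type, and COV434, listed by the submitters as a GCT line, were sequenced in 12 libraries of RNA. Each line has 3 untreated and 3 treated libraries, labelled as wild-type cells of the ovary. The labels of the treated libraries give 10 um/ml of 77-39 for 72 h, a unit that does not tell a molar from a mass concentration. The same dose text stands on the untreated libraries, which are untreated by their titles. Each line is a single cell line. The labels do not say whether the libraries of a group came from separate cultures, so the p-values measure only the spread between these libraries.

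A cell that meets broken or mispaired DNA first senses it and stops the cell cycle, and then repairs it by the pathway that suits the lesion. The kinases ATM and ATR raise the alarm and pass it to CHEK2 and CHEK1. Homologous recombination copies the intact sister chromatid, end joining seals the broken ends directly, the Fanconi anemia proteins open cross-linked strands, and excision and mismatch repair replace damaged or wrong bases. Many of the recombination genes are transcribed mostly in cells that are replicating their DNA, under E2F transcription factors.

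Levels are given in FPKM, which scales the fragments of a gene to its length and to library size. The products of FPKM and gene length fell on whole reads in 100% of the genes above 0 in each library (tolerance 0.05), which gave back 15547851 to 18280415 reads on genes per library. The 46 genes had between 29 reads (RAD54B) and 17722 reads (PRKDC) in a library, with a median of 585.5. Fold changes are differences of log2(FPKM + 1), which understates the change of low genes, and genes whose mean was under 1 FPKM were not tested. A gene is called higher or lower when its two-sided p from limma, adjusted by Benjamini-Hochberg over all genes tested, was under 0.05. In bulk RNA, fewer cells of a kind and less RNA per cell cannot be told apart.

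FOXL2, SMARCA4 and SMARCA2, defining markers of the lines, went against the labels. KGN cells are known to express FOXL2, the granulosa cell transcription factor, and COV434 cells are known for the loss of the chromatin remodelers SMARCA4 and SMARCA2. In the 6 libraries labelled KGN, FOXL2 was between 0 and 0.0195 FPKM and SMARCA2 between 0.00296 and 0.00870 FPKM, against 11.5 to 14.0 FPKM and 4.51 to 6.48 FPKM in the 6 libraries labelled COV434. SMARCA4 was between 2.25 and 2.60 FPKM in the former and between 6.51 and 12.6 FPKM in the latter. Of the 7 other markers in the list, WT1, a transcription factor of the gonad, was higher in the libraries labelled KGN. It was at 45.9 to 61.4 FPKM in these and 0 in the 6 libraries labelled COV434. INHA, the alpha subunit of inhibin, was at 0.580 to 1.22 FPKM against 2.40 to 5.22 FPKM, and AMH, anti-Müllerian hormone, at 4.07 to 4.83 FPKM against 5.45 to 9.14 FPKM. CYP19A1 was at 0.0482 to 0.161 FPKM against 0.0396 to 0.128 FPKM, NR5A1 at 0 to 0.0166 FPKM against 0, and FST at 0.0171 to 0.0908 FPKM against 0 to 0.198 FPKM, and FSHR, the receptor of follicle-stimulating hormone, was 0 in all 12. The lines are therefore written below as the libraries labelled KGN and the libraries labelled COV434.

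The promoters of the 46 genes were read for the letters of an E2F site, because the E2F regulators themselves were among the genes compared. RefSeq promoter windows of GRCh38.p14, which reach from 250 bases before to 50 bases after an annotated start, were present for 39 of the 46 genes. The letters searched were TTTCCCGC, TTTCGCGC, TTTGCCGC and TTTGGCGC on both strands. They occurred in 10 of the 39 genes (25.6%), against 7.19% of the 8546 tested genes with a window. By window, they were in 11 of the 60 of these genes (18.3%), against 3.31% of all 35116 windows. They were in 8 of the 21 genes called lower in the libraries labelled KGN, in 0 of the 4 called higher and in 2 of the 13 not called. Of all 1549 genes called lower there, 10.97% held them. The 2 genes not called that held them were TOPBP1 and PMS2. The match of TOPBP1 started 7 bases before an annotated start, and the matches of PMS2 started 43 and 100 bases before. The CHR letters TTTGAA, searched in the same way, were in 6 of the 39 genes (15.4%) and in 12.9% of all tested genes, and the letters CCAAT were in 20 of the 39 (51.3%) and in 43.7%. A window with several matches counts once for each motif, also where motifs share bases. The match of XRCC6, 43 bases after its start, lies too near the window's end to be shown with its surroundings. The stretches below show the E2F letters in capitals, with 11 bases on either side, for the 4 lower genes in which the letters lie within 30 bases of an annotated start and for FANCA, the Fanconi gene that fell most. All read 5′ to 3′ along the gene.
EXO1 (chr1:241848197-241848226, plus strand): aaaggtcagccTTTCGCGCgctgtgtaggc
MSH6 (chr2:47783137-47783166, plus strand): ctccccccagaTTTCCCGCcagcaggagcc
FANCD2 (chr3:10026424-10026453, plus strand): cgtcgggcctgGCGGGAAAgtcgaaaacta
XRCC2 (chr7:152676102-152676131, minus strand): tggcgttggtgGCGGGAAAgttgagtctct
FANCA (chr16:89816801-89816830, minus strand): actacaccgcgGCGGCAAAgccaaacgcaa
The same letters in FANCD2 and XRCC2, GCGGGAAA, are the reverse complement of those in MSH6. A match is a description of the letters and does not show that a factor binds there.

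In the libraries labelled KGN, 23 of the 44 genes tested were lower and 6 higher with 77-39. Over all 12671 genes tested, 16.4% were lower and 17.6% higher, so the lower share of the repair genes stood above the background and the higher share did not. The median log2 fold change of the 44 genes was -0.21, against 0.01 over all genes tested. Treated and untreated libraries did not overlap for 27 genes on the lower side, where the background was 23.4%, and for 7 on the higher side, where it was 26.3%. RAD51B and RAD54B, a paralog and a translocase of recombination, had means under 1 FPKM and were not tested. When all 12 libraries were fitted together, so that the larger spread of the other line entered the error, 13 genes were lower (background 5.26%) and 2 higher (background 4.5%). In that fit ATM, ATR, WRN and RBBP8 lost their higher calls. BARD1, BRIP1, XRCC2, FANCC, FANCD2, MRE11, ATRIP, MSH6, UNG and PARP1 lost their lower calls there.

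**Figure D1:**
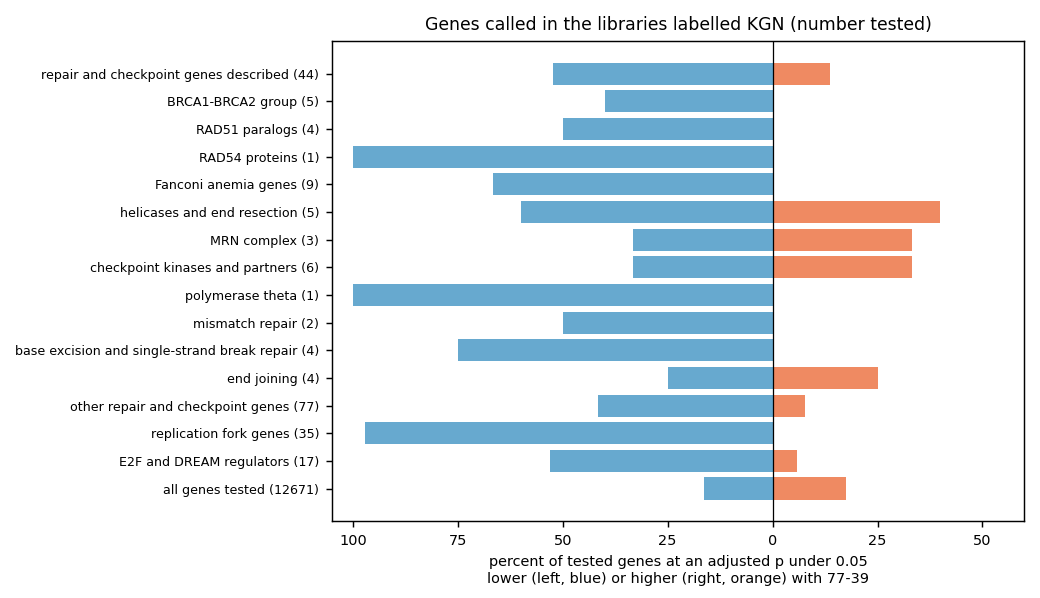
Percent of the tested genes of each group that were called lower (blue, left) or higher (orange, right) with 77-39 in the libraries labelled KGN, with the number tested in brackets. Of the 44 genes, 23 were lower and 6 higher, and 34 of the 35 replication fork genes were lower. Over all 12671 genes tested, 16.4% were lower and 17.6% higher.

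**Figure D2:**
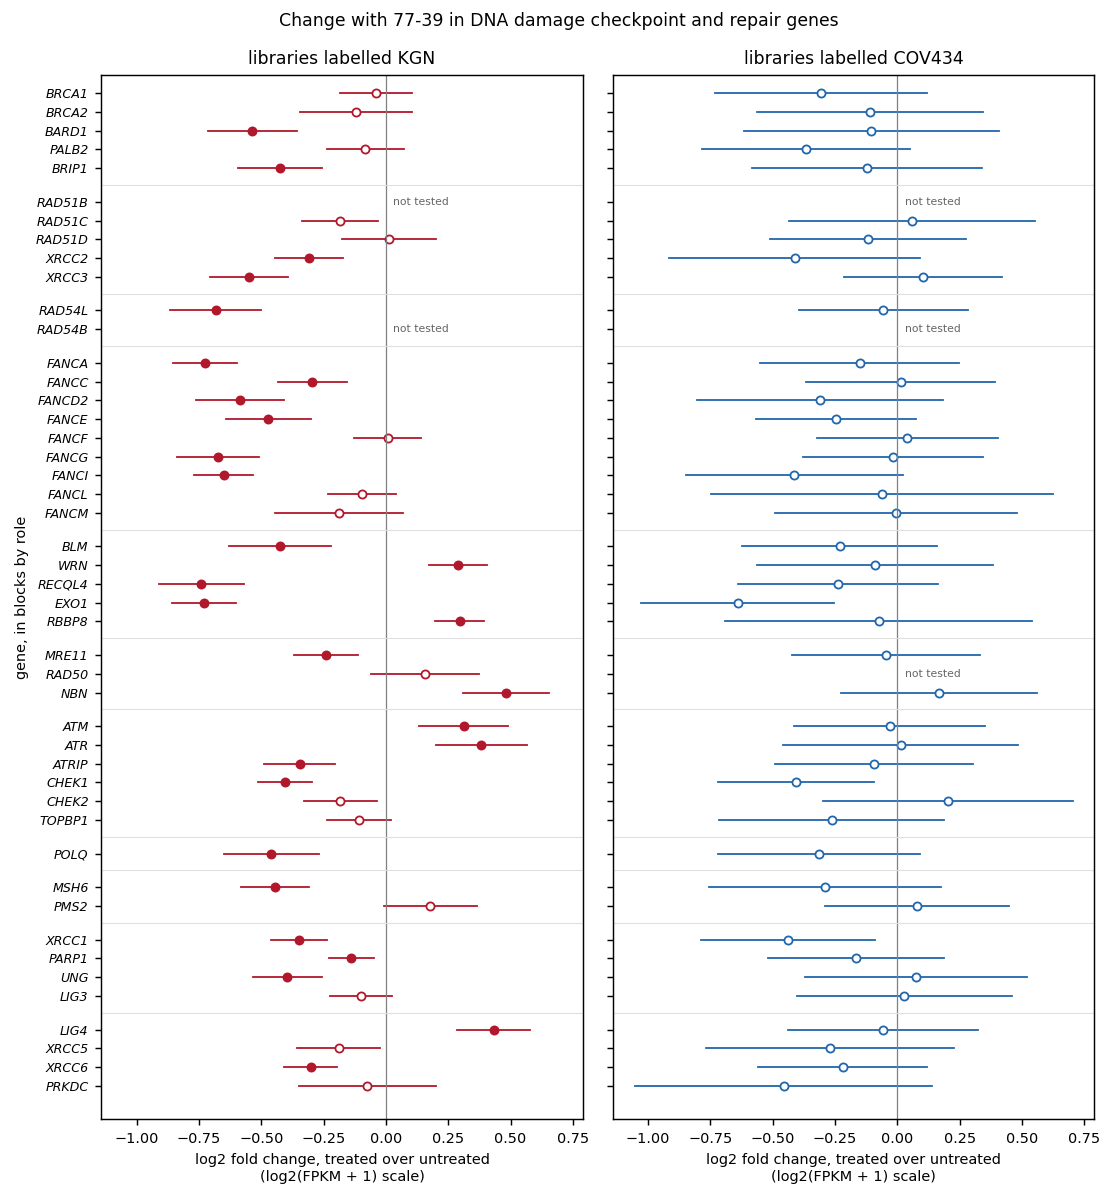
Log2 fold change, treated over untreated, of each of the 46 genes with its 95% confidence interval, in the libraries labelled KGN (red) and COV434 (blue), in blocks by role. Filled points passed an adjusted p of 0.05, which 29 genes did on the KGN side and 0 on the COV434 side.

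The recombination mediators of the BRCA1-BRCA2 group fell in part. BARD1, the partner of BRCA1 in its ubiquitin ligase (ENSG00000138376, chromosome 2, 214725646 to 214809711, minus strand), was at 4.99, 4.71 and 5.09 FPKM in the untreated libraries and 3.00, 3.52 and 2.79 FPKM in the treated ones. All 3 treated libraries lay below the lowest untreated one, and BARD1 fell by 37.1% in FPKM (log2 fold change -0.54, SE 0.076, adjusted p = 0.00281). BRIP1, a helicase that binds BRCA1, was also lower, at 3.54 ± 0.334 FPKM (SD, n = 3) without and 2.38 ± 0.105 FPKM with 77-39 (log2 fold change -0.42, SE 0.072, adjusted p = 0.00529). BRCA1, BRCA2, which loads the recombinase onto DNA, and PALB2, which joins the pair, were not called, with log2 fold changes of -0.040, -0.12 and -0.082. The partner BARD1 thus fell while the interval for BRCA1 itself ran from -0.18 to 0.10.

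Among the recombinase paralogs, which assist filament formation on single-stranded DNA, XRCC3 and XRCC2 were lower. XRCC3 (ENSG00000126215, chromosome 14, 103697609 to 103715504, minus strand) was at 2.89, 3.07 and 3.19 FPKM in the untreated libraries and 1.86, 1.66 and 1.78 FPKM in the treated ones. The groups were well apart, and XRCC3 fell by 42.1% (log2 fold change -0.55, SE 0.066, adjusted p = 0.00159). KLC1 on the opposite strand covers 76.7% of its exonic bases, and the kit named in the labels does not mark strand, so reads of the pair cannot be told apart. XRCC2 was at 4.73 ± 0.128 FPKM (SD, n = 3) without and 3.63 ± 0.257 FPKM with 77-39 (log2 fold change -0.31, SE 0.058, adjusted p = 0.00807). RAD51C and RAD51D were not called, at log2 fold changes of -0.18 and 0.012. RAD54L, a motor protein that helps the filament invade the sister duplex (ENSG00000085999, chromosome 1, 46247688 to 46278473, plus strand), was at 6.35, 7.56 and 7.01 FPKM in the untreated libraries and 3.83, 3.71 and 4.36 FPKM in the treated ones. It fell by 43.1% without overlap (log2 fold change -0.68, SE 0.077, adjusted p = 0.00128), and 25.1% of its exonic bases lie opposite LRRC41. The genes below the filter were RAD51B, at 1.03, 1.12 and 1.16 FPKM in the untreated libraries and 0.870, 0.987 and 0.816 FPKM in the treated ones, and RAD54B, at 0.853, 0.826 and 0.889 FPKM in the untreated libraries and 0.985, 0.929 and 0.946 FPKM in the treated ones, which shares 59.1% of its exonic bases with FSBP on the same strand. Without the filter neither was called, with log2 fold changes of -0.15 (adjusted p = 0.432) and 0.074 (adjusted p = 0.663).

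The Fanconi anemia genes, whose products recognize and unhook DNA crosslinks, are the largest group, and 6 of 9 were lower and 0 higher. Base excision and single-strand break repair, a smaller group, had 3 of 4 lower. FANCA, a scaffold of the core complex (ENSG00000187741, chromosome 16, 89737549 to 89816657, minus strand), was at 5.86, 6.32 and 5.72 FPKM in the untreated libraries and 3.25, 3.08 and 3.31 FPKM in the treated ones. Every treated library lay near the same level, and FANCA fell by 46.2% (log2 fold change -0.73, SE 0.055, adjusted p = 0.000348). ZNF276 on the opposite strand covers 23.6% of its exonic bases. FANCG, another core subunit (ENSG00000221829, chromosome 9, 35073835 to 35080016, minus strand), was at 10.6, 10.4 and 11.5 FPKM in the untreated libraries and 6.98, 5.83 and 6.49 FPKM in the treated ones (log2 fold change -0.67, SE 0.070, adjusted p = 0.000965). FANCI and FANCD2 form the clamp that the core complex ubiquitinates. FANCI (ENSG00000140525, chromosome 15, 89243949 to 89317261, plus strand) was at 10.9, 11.5 and 11.3 FPKM in the untreated libraries and 6.88, 7.07 and 6.41 FPKM in the treated ones (log2 fold change -0.65, SE 0.051, adjusted p = 0.000394). FANCD2 (ENSG00000144554, chromosome 3, 10026414 to 10101930, plus strand) was at 4.87, 5.34 and 5.31 FPKM in the untreated libraries and 3.28, 3.35 and 2.73 FPKM in the treated ones (log2 fold change -0.58, SE 0.075, adjusted p = 0.00197). FANCI thus fell by 39.5% and FANCD2 fell by 39.6% in FPKM, with no overlap. FANCE and FANCC, further core subunits, were lower with log2 fold changes of -0.47 and -0.29. FANCF, the ubiquitin ligase FANCL and the translocase FANCM were not called, at 0.0068, -0.10 and -0.19.

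The helicases and end resection factors were all called in the fit of these libraries alone, but not in a common direction. EXO1, the exonuclease that extends resected ends (ENSG00000174371, chromosome 1, 241847967 to 241895148, plus strand), was at 7.10, 7.18 and 7.36 FPKM in the untreated libraries and 4.02, 4.18 and 3.68 FPKM in the treated ones. The 3 untreated libraries agreed closely, and EXO1 fell by 45.1% (log2 fold change -0.73, SE 0.054, adjusted p = 0.000341), the smallest p among the 44 genes. RECQL4, a helicase that also takes part in starting replication, was at 8.93, 9.88 and 9.68 FPKM in the untreated libraries and 5.07, 4.90 and 5.90 FPKM in the treated ones. It fell by 44.3%, the lowest log2 fold change among the 44 genes (log2 fold change -0.74, SE 0.073, adjusted p = 0.000775). BLM, the helicase that dissolves recombination intermediates, was lower, at 2.37 ± 0.0672 FPKM (SD, n = 3) without and 1.52 ± 0.226 FPKM with 77-39 (log2 fold change -0.42, SE 0.086, adjusted p = 0.0106). WRN, the helicase and exonuclease lost in Werner syndrome, and RBBP8, which starts end resection, were higher. WRN was at 5.46 ± 0.182 FPKM (SD, n = 3) without and 6.90 ± 0.268 FPKM with 77-39 (log2 fold change 0.29, SE 0.049, adjusted p = 0.00531), and RBBP8 at 12.02 ± 0.297 FPKM (SD, n = 3) without and 15.0 ± 0.301 FPKM with 77-39 (log2 fold change 0.30, SE 0.042, adjusted p = 0.00275). Resection thus held a gene called higher, RBBP8, and a gene called lower, EXO1. In 1 fit of all 12 libraries, WRN and RBBP8 were not called (adjusted p = 0.269 and 0.446), while EXO1 was.

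The MRN complex, which holds broken ends and activates ATM, also split. NBN, its signaling subunit, was at 6.89, 7.46 and 7.21 FPKM in the untreated libraries and 10.9, 11.2 and 9.29 FPKM in the treated ones. All treated libraries lay above all untreated ones, and NBN rose by 45.5%, the largest log2 fold change on the higher side (log2 fold change 0.48, SE 0.073, adjusted p = 0.00356). MRE11, the nuclease of the complex, was lower (log2 fold change -0.24, SE 0.054, adjusted p = 0.0148), and lost that call without untreated library 2 (adjusted p = 0.0535). RAD50, its ATPase, was not called (log2 fold change 0.16, SE 0.091, adjusted p = 0.221), and 79.7% of its exonic bases are shared with a gene model on the same strand.

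In the fit of the libraries labelled KGN alone, the apical checkpoint kinases ATM and ATR were called higher and the effector kinase CHEK1 lower. CHEK1 (ENSG00000149554, chromosome 11, 125625136 to 125676255, plus strand) was at 7.10, 7.39 and 7.33 FPKM in the untreated libraries and 5.44, 5.12 and 5.18 FPKM in the treated ones. The groups were far apart for their spread, and CHEK1 fell by 27.9% (log2 fold change -0.41, SE 0.045, adjusted p = 0.00124). ATR, the kinase of stalled forks, was at 4.07, 4.53 and 4.73 FPKM without and 6.60, 6.23 and 5.49 FPKM with 77-39 (log2 fold change 0.38, SE 0.077, adjusted p = 0.00999). AC109992.1 on the opposite strand covers 16.4% of the exonic bases of ATR. ATRIP, the binding partner of ATR, was lower (log2 fold change -0.35, SE 0.061, adjusted p = 0.00604), with 27.9% of its exonic bases shared with TREX1 on the same strand. ATM, the kinase of broken ends, was at 4.45, 4.53 and 4.47 FPKM without and 6.26, 6.16 and 5.07 FPKM with 77-39 (log2 fold change 0.31, SE 0.076, adjusted p = 0.0194). ATM lost its call when untreated library 2 or 3 or treated library 1 or 2 was left out (adjusted p = 0.0524 to 0.0702), and with no filter on low values (adjusted p = 0.0658). In 1 fit of all 12 libraries, neither ATM nor ATR was called (adjusted p = 0.131 and 0.170), while CHEK1 was. CHEK2 and TOPBP1, an activator of ATR, were not called, at -0.18 and -0.11.

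POLQ, the polymerase of microhomology-mediated end joining (ENSG00000051341, chromosome 3, 121431427 to 121546641, minus strand), was at 3.83, 4.61 and 4.44 FPKM in the untreated libraries and 2.63, 3.12 and 2.79 FPKM in the treated ones (log2 fold change -0.46, SE 0.080, adjusted p = 0.00599). Of the mismatch repair genes, MSH6, which recognizes mispaired bases (ENSG00000116062, chromosome 2, 47695530 to 47810101, plus strand), was at 10.9, 11.9 and 11.4 FPKM in the untreated libraries and 8.48, 8.28 and 7.55 FPKM in the treated ones (log2 fold change -0.44, SE 0.058, adjusted p = 0.0021). MSH6 thus fell by 28.8%, with no overlap between treated and untreated libraries, and 16.2% of its exonic bases lie opposite FBXO11. PMS2, an endonuclease of the same pathway, was not called (log2 fold change 0.18, SE 0.078, adjusted p = 0.12), and 10 annotated pseudogenes carry its name, so its reads may be split.

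In base excision and single-strand break repair, 3 of 4 genes were lower. XRCC1, the scaffold that gathers the enzymes at a nick (ENSG00000073050, chromosome 19, 43543040 to 43580473, minus strand), was at 7.22, 7.19 and 7.30 FPKM in the untreated libraries and 5.51, 5.20 and 5.69 FPKM in the treated ones. The untreated libraries differed by little, and XRCC1 fell by 24.5% (log2 fold change -0.35, SE 0.047, adjusted p = 0.00235). Other gene models cover 17.5% of its exonic bases on the opposite strand and 6.48% on the same strand. UNG, which removes uracil from DNA, was lower, at 18.2 ± 0.225 FPKM (SD, n = 3) without and 13.6 ± 1.04 FPKM with 77-39 (log2 fold change -0.39, SE 0.058, adjusted p = 0.00315). PARP1, the sensor of strand breaks, was lower by 9.44% (log2 fold change -0.14, SE 0.038, adjusted p = 0.0297). That call was lost without untreated library 2 or 3 or any treated library (adjusted p = 0.0579 to 0.0921). LIG3, the ligase of this pathway, was not called, at -0.10. In end joining, LIG4, the ligase that seals broken ends (ENSG00000174405, chromosome 13, 108207439 to 108218368, minus strand), was at 6.69, 6.28 and 6.90 FPKM in the untreated libraries and 9.15, 10.0 and 8.74 FPKM in the treated ones. It rose by 40.4% without overlap (log2 fold change 0.43, SE 0.062, adjusted p = 0.00287). XRCC6, a subunit of the Ku ring that caps broken ends and the most abundant of the 46 transcripts, was lower, at 131 ± 4.01 FPKM (SD, n = 3) without and 106 ± 0.484 FPKM with 77-39 (log2 fold change -0.30, SE 0.045, adjusted p = 0.00323). Its partner XRCC5 and the kinase PRKDC were not called, at -0.19 and -0.074.

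**Figure D3:**
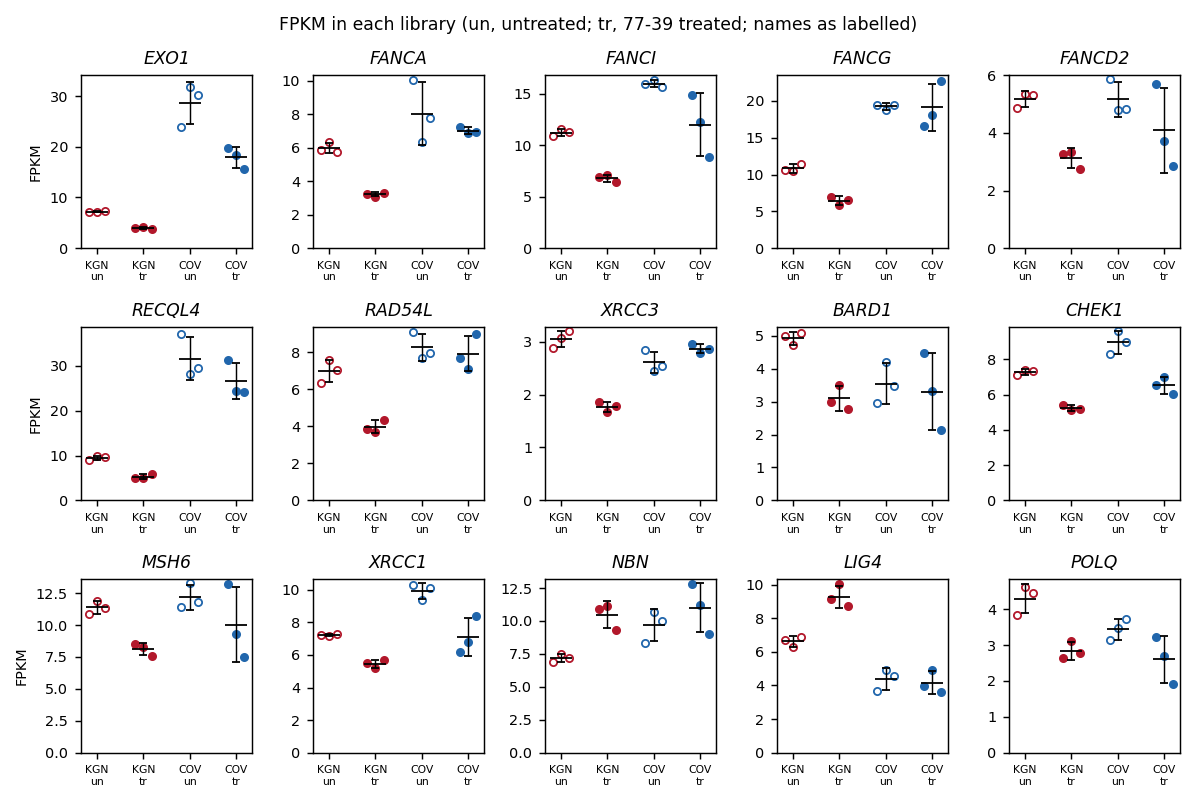
FPKM of 15 genes in each of the 12 libraries, untreated (un, open points) and treated (tr, filled points), labelled KGN (red) or COV434 (COV, blue), with the mean and SD of each group of 3. Each axis starts at 0. All 15 were picked from the genes called in the libraries labelled KGN, so their separation by treatment there follows from the choice. Of them 13 are lower there and NBN and LIG4 higher. Of the 44 genes tested there, 10 overlapped between treated and untreated libraries. The libraries labelled COV434 spread more.

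In the libraries labelled COV434, 0 of the 43 genes tested passed the adjusted threshold, and 33 of the 43 had a negative log2 fold change, with a median of -0.11 against -0.018 over all genes tested. The background was 0.0415% of 12060 genes, and 0.721% when the shared library number was taken as a block, a fit in which 0 of the 43 passed as well. RAD51B, RAD54B and RAD50 had means under 1 FPKM there and were not tested. At an unadjusted p under 0.05 from limma, 3 genes lay on the lower side, EXO1, CHEK1 and XRCC1, against a background of 4.49%, and 0 on the higher side, against 3.52%. EXO1 was at 23.9, 31.7 and 30.3 FPKM in the untreated libraries and 19.7, 18.5 and 15.7 FPKM in the treated ones (log2 fold change -0.64, SE 0.17, adjusted p = 0.272). CHEK1 was at 8.33, 9.63 and 8.96 FPKM in the untreated libraries and 6.52, 7.01 and 6.05 FPKM in the treated ones (log2 fold change -0.41, SE 0.14, adjusted p = 0.433). XRCC1 was at 10.3, 9.39 and 10.1 FPKM in the untreated libraries and 6.16, 6.78 and 8.42 FPKM in the treated ones (log2 fold change -0.44, SE 0.15, adjusted p = 0.458). In all 3 genes the treated libraries lay below every untreated one, and the treated means were 62.7% of the untreated mean for EXO1, 72.8% for CHEK1 and 71.7% for XRCC1. With the block, 6 genes passed the unadjusted threshold on the lower side (background 7.57%), the added ones being XRCC2, FANCI and PRKDC. Groups did not overlap for 7 genes on the lower side (background 8.16%) and for 0 on the higher side (6.23%).

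The spread between libraries was wider here, and it moved with gene length. Treated library 1 was above and treated library 3 below the mean of their group for long genes, with correlations of 0.30 and -0.27 between deviation and log gene length over 12060 genes. The 43 repair genes deviated by a median of 0.22 in treated library 1 and -0.17 in treated library 3 on the log2 scale, and they are long, with a median length of 6357 bases over the 46 against 4385 over all genes tested in the libraries labelled KGN. Treated library 1 also had the highest share of mitochondrial reads, 13.5%. FANCD2 was at 5.71, 3.71 and 2.84 FPKM and BARD1 at 4.47, 3.31 and 2.14 FPKM in treated libraries 1 to 3, highest in the first and lowest in the last, and both overlapped their untreated libraries. Without treated library 1, 10 genes passed the unadjusted threshold on the lower side (background 5.55%), and leaving out untreated library 2, untreated library 3 or treated library 2 gave 2, 1 and 2, where the backgrounds were 3.72%, 2.51% and 2.83%. Whichever library was left out, 0 genes passed the adjusted threshold. The part of gene length in these results was not tested beyond a fit with the length trend removed, in which 4 genes passed the unadjusted threshold on the lower side (background 5.02%).

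**Figure D4:**
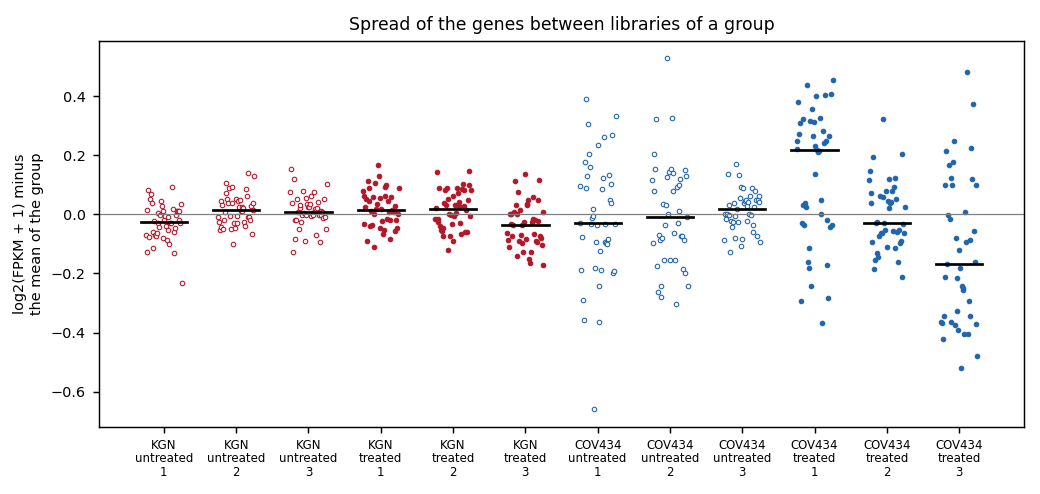
Log2(FPKM + 1) of each tested repair gene in a library minus the mean of its group, for the libraries labelled KGN (red, 44 genes) and COV434 (blue, 43 genes), untreated open and treated filled, with the median of a library as a black bar. The medians of the treated libraries 1 and 3 labelled COV434 lie at 0.22 and -0.17.

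The 23 genes lower in the libraries labelled KGN had a median log2 fold change of -0.44 there and of -0.22 in the libraries labelled COV434. In the latter 20 of the 23 were negative, against 33 of all 43 repair genes tested. The median over all genes tested in the libraries labelled COV434 was -0.018. The 6 genes higher in the libraries labelled KGN had a median of 0.35 in these libraries. Their median was -0.044 in the libraries labelled COV434, where 4 of the 6 were negative. NBN, for example, had a log2 fold change of 0.17 in the libraries labelled COV434 (95% interval -0.23 to 0.56), LIG4 one of -0.057 (-0.44 to 0.32) and ATR one of 0.013 (-0.46 to 0.48). These intervals are wide enough to hold a change of either sign.

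Whether the response differed between the lines was tested as the interaction of line and treatment over all 12 libraries. Among 43 genes, 3 differed with a more negative response in the libraries labelled KGN (background 1.74%) and 0 with a more positive one (background 1.85%). XRCC3 was at 2.84, 2.44 and 2.55 FPKM in the untreated libraries and 2.95, 2.79 and 2.86 FPKM in the treated ones of the libraries labelled COV434, and its log2 fold change was lower by 0.65 in those labelled KGN (SE 0.11, adjusted p = 0.0113). XRCC3 kept its call in all 21 alternative fits, with differences from -0.93 to -0.62. FANCG was at 19.5, 18.8 and 19.5 FPKM in the untreated libraries and 16.6, 18.1 and 22.7 FPKM in the treated ones of the libraries labelled COV434, a difference of -0.65 in response (SE 0.16, adjusted p = 0.0457). RAD54L was at 9.09, 7.69 and 7.96 FPKM in the untreated libraries and 7.65, 7.11 and 8.97 FPKM in the treated ones there, a difference of -0.63 (SE 0.15, adjusted p = 0.0429). In these 3 genes, which act in recombination and crosslink repair, the treated libraries labelled COV434 overlapped the untreated ones. FANCG lost its call when any 1 of the 6 libraries labelled KGN, or untreated library 2 or 3 or treated library 2 labelled COV434, was left out (adjusted p = 0.0749 to 0.140). RAD54L lost it when any 1 of these libraries or treated library 3 labelled COV434 was left out (adjusted p = 0.0526 to 0.133), and with the library number as a block (adjusted p = 0.0584).

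The lines also differed before treatment. Of 43 genes, 20 were lower in the untreated libraries labelled KGN than in those labelled COV434 (background 36.4% of 13098 genes) and 7 were higher (background 32.6%). The median difference was -0.25 on the log2 scale, against -0.024 over all genes tested, a median that moved to 0.18 with voom on the recovered reads. The total to which FPKM was scaled was 1.07 to 1.10 times the reads on genes in the untreated libraries labelled KGN. In the untreated libraries labelled COV434 it was 0.936 to 0.951 times those reads, whereas voom scaled to the reads themselves. The part of this difference in scaling in the counts of lower and higher genes was not tested. EXO1 differed most, at 7.10, 7.18 and 7.36 FPKM in the libraries labelled KGN and 23.9, 31.7 and 30.3 FPKM in those labelled COV434 (log2 difference -1.84, adjusted p = 1.48e-05). RECQL4 was at 8.93, 9.88 and 9.68 FPKM against 37.1, 28.1 and 29.6 FPKM (log2 difference -1.63). UNG was at 18.4, 18.0 and 18.3 FPKM against 58.1, 53.3 and 58.6 FPKM (log2 difference -1.58). The lines did not overlap for any of these 3 genes, and the mean levels were 3.97-fold, 3.33-fold and 3.11-fold higher in the libraries labelled COV434. FANCE, XRCC2 and TOPBP1 followed with log2 differences of -1.23, -0.88 and -0.81.

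On the other side, WRN was at 5.51, 5.26 and 5.61 FPKM in the untreated libraries labelled KGN and 2.31, 2.75 and 2.15 FPKM in those labelled COV434 (log2 difference 0.93, adjusted p = 0.000118). RAD51C and LIG4 were also higher there, with log2 differences of 0.62 and 0.51. RAD51C lost that call without untreated library 1 or 2 labelled KGN (adjusted p = 0.0562 to 0.0609). The count of lower genes was 13 without untreated library 3 labelled KGN (background 33.1%). Quantile normalization gave 8 higher and 15 lower, where the backgrounds were 37.4% and 31.7%. Voom gave 13 higher and 12 lower, where they were 39.9% and 31.0%. PARP1 and XRCC6 turned from lower to higher under quantile normalization, where neither was called.

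**Figure D5:**
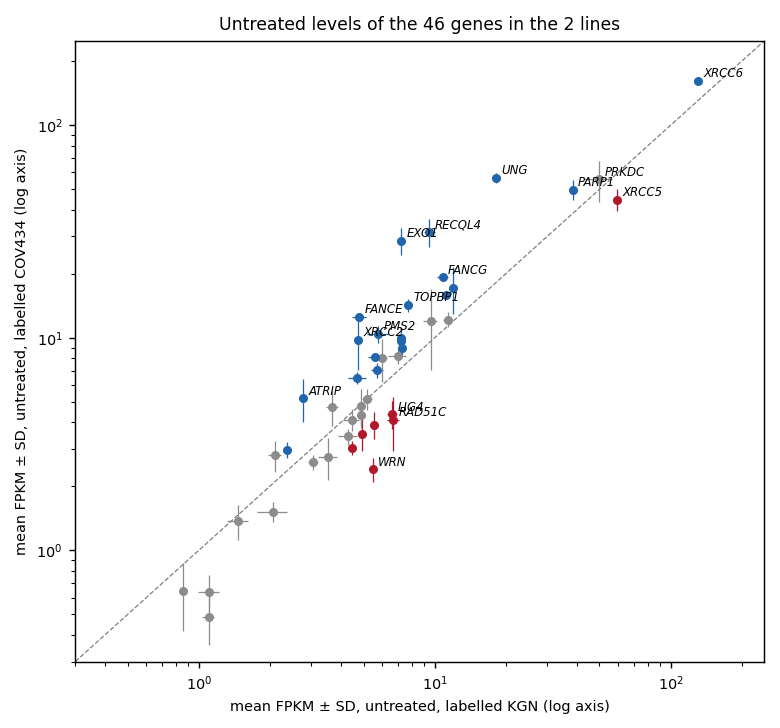
Mean FPKM with SD of the 46 genes in the 3 untreated libraries labelled KGN (x) and the 3 labelled COV434 (y), both on log axes, with a dashed line at equal levels. Blue genes were called lower and red genes higher in the libraries labelled KGN, and grey genes were not called or not tested. EXO1, RECQL4 and UNG lie farthest above the line and WRN below it.

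Across the groups the order of levels held at its ends. XRCC6 was the highest of the 46 genes in all 4 groups, from 106 FPKM in the treated libraries labelled KGN to 162 FPKM in the untreated ones labelled COV434. The lowest were RAD54B or RAD51B, between 0.469 and 0.891 FPKM. In the untreated libraries labelled KGN, XRCC5 came next at 58.1, 61.0 and 58.9 FPKM. PRKDC had 41.9, 54.2 and 53.1 FPKM and PARP1 38.7, 38.2 and 38.4 FPKM. The libraries of these 4 neighbours in the order did not overlap there. In the untreated libraries labelled COV434, UNG stood at 58.1, 53.3 and 58.6 FPKM and PRKDC at 69.4, 46.3 and 51.4 FPKM, and their libraries overlapped.

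Other genes of the same processes, chosen by name, changed in part in the libraries labelled KGN. Of 77 further repair and checkpoint genes tested, 32 were lower, 6 higher and 39 not called, with a median log2 fold change of -0.15. Over all genes tested, 16.4% were lower and 17.6% higher. UBE2T, the ubiquitin-conjugating enzyme of the Fanconi pathway, fell from 28.1 ± 0.378 to 14.8 ± 1.51 FPKM (SD, n = 3; adjusted p = 0.000427). RMI2, a partner of BLM, EME1, a subunit of a resolvase, and DDB2, which senses ultraviolet damage, were lower with log2 fold changes of -0.78, -0.76 and -0.43. PMS1, RAD17, REV3L and POLK were higher, with log2 fold changes of 0.40, 0.33, 0.35 and 0.28. POLK lost its call when untreated library 1 or 2 or treated library 1 or 2 was left out (adjusted p = 0.0792 to 0.108), and with the library number as a block (adjusted p = 0.0841). REV3L lost it without untreated library 2 or treated library 1 or 2 (adjusted p = 0.0525 to 0.0581), and with the block (adjusted p = 0.0511). PMS1 and RAD17 kept theirs whichever library was left out. In 1 fit of all 12 libraries, none of these 4 was called (adjusted p = 0.0993 to 0.305). Of the whole list, 21 were lower without untreated library 2 or 3 and 20 without treated library 2. Over all genes, 1435 of 12681, 1439 of 12677 and 1371 of 12679 were lower in these 3 fits. In 1 fit of all 12, 11 were lower (background 5.26%) and 0 higher (background 4.5%). The higher count was 3 without untreated library 1 (2058 of 12698 over all genes). It was 2 without untreated library 2 (1614 of 12681), treated library 1 (1530 of 12651) or treated library 2 (1380 of 12679). It was also 2 with the block (1662 of 12671) and with no filter on low values (1540 of 32824).

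The replication fork genes, which copy DNA rather than mend it, moved in the same libraries. Of 35 tested, 34 were lower (background 16.4%) and 0 higher (background 17.6%), with a median log2 fold change of -0.70. MCM5, MCM2, MCM3 and MCM4, subunits of the replicative helicase, had log2 fold changes of -1.15, -1.08, -0.92 and -0.97. Of 17 E2F and DREAM regulators, 9 were lower and 1 higher, against the same backgrounds. The lower ones were E2F1 (-0.99), E2F2 (-0.90), E2F7 (-0.72), E2F8 (-0.95), TFDP1 (-0.42), RBL1 (-0.38), MYBL2 (-1.16), FOXM1 (-0.68) and LIN9 (-0.49), and E2F6 was higher (0.22). E2F6 lost its call when untreated library 2 or 3 or treated library 1 or 2 was left out (adjusted p = 0.0516 to 0.0671) and in 1 fit of all 12 libraries (adjusted p = 0.287), where RBL1 and LIN9 were not called either (adjusted p = 0.212 and 0.202). The 9 lower calls held whichever library was left out. In the libraries labelled COV434, 0 genes of these 3 lists passed the adjusted threshold. At an unadjusted p under 0.05 from limma, 0 of 76 further repair genes, 5 of 35 fork genes and 4 of 16 regulators were lower (background 4.49%). On the higher side there were 1, 0 and 0 (background 3.52%). The share of cells in each phase of the cell cycle was not measured here, and its part in the repair genes' levels was not tested.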

How the data were processed

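RNA of 2 cell lines was sequenced in 12 libraries, 3 for each line and treatment, with groups taken from the labels' titles. The authors deposited FPKM per gene, counted on the genes of GENCODE release 29 (GRCh38), to which all 58735 coordinates match. The submitters' processing notes name HISAT2 2.0.5 and the mouse builds mm10 and mm8, although the genes are human. The strand used in counting is not given in the sources used here.

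Genes averaging 1 FPKM or more were fitted in each line alone, as log2(FPKM + 1), with limma 3.58.1 (R 4.3.3; eBayes with its trend option), with two-sided tests and Benjamini-Hochberg adjustment. The interaction was fitted over all 12 libraries, and the untreated libraries of both lines were compared alone. Depth was 15547851 to 18280415 reads on genes. The other settings tried were a filter at 0.1 FPKM or none, a pseudocount of 0.1, median-ratio scaling, quantile normalization, voom, 1 fit of all 12 libraries, a replicate block and each library left out in turn. Removal of the trend with gene length (lowess, span 0.3) was chosen after seeing the data. The fits were tested on simulated data.

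Same-numbered libraries labelled COV434 deviated together (correlations 0.40, 0.47 and 0.17 over 12060 genes), and those labelled KGN did not (-0.016, -0.018 and -0.019). The third value labelled COV434 was near that of untreated library 3 with treated library 2 (0.15). The main fits have no block, and fits with the library number as a block are given beside them. The titles number the libraries but do not say whether equal numbers share a culture.

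Values in every library are given for genes called with a log2 fold change of at least 0.5 in size in either line, for genes that differed between lines, and for the gene with the smallest p of each role in the libraries labelled KGN. ATR, ATM, UNG, WRN and the other genes given in every library were chosen after their values were seen. From the lists of further repair genes and fork genes, the 4 with the smallest p in each direction are named, and of the E2F and DREAM regulators those called. The 46 genes and all lists were chosen with earlier results of these data known.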

Additional observations from a re-analysis of the deposited data

Results flagged for a closer look

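The response to 77-39 of 3 repair genes differed between the libraries labelled KGN and those labelled COV434 in the test of line by treatment. The log2 fold change in the libraries labelled KGN minus that in the libraries labelled COV434 was -0.65 for XRCC3, -0.63 for RAD54L and -0.65 for FANCG. The difference for XRCC3 was past the adjusted threshold in all 21 alternatives run, that for FANCG in 8 and that for RAD54L in 4. The markers that went against the line labels apply to each of them, and 76.7% of the exonic bases of XRCC3 lie opposite KLC1.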

How the results depend on the processing

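Of the 29 calls in the libraries labelled KGN, 0 changed direction in any alternative run, with 437 results of gene and alternative on the same side of the threshold and 27 past it only in the fit reported. The numbers of higher and lower genes were 2 (background 4.5%) and 13 (background 5.26%) in 1 fit of all 12 libraries. When a library was left out they were 5 to 6 and 21 to 23. Over all genes, leaving out a library called 1380 of 12679 to 2058 of 12698 higher and 1371 of 12679 to 2070 of 12698 lower. In the libraries labelled COV434, 1 fit of all 12 libraries called 3 genes lower (EXO1, CHEK1 and XRCC1). Over all 12060 genes tested, that fit called 270 lower and 218 higher. Leaving out a library called 0 of the repair genes. For the difference between lines, 1 gene was called with a filter at 0.1 FPKM, with no filter and with voom. Over all genes, 201 of 22190, 168 of 35981 and 126 of 13127 had a more negative response in these fits. When a library was left out, 1 to 4 repair genes had a more negative response and 0 to 1 a more positive one. Over all genes, leaving out a library called 58 of 13100 to 427 of 13164 with a more negative response. On the more positive side the range was 67 of 13060 to 548 of 13164. Between the untreated libraries, voom called 13 higher (background 39.9%) and 12 lower (background 31.0%). Leaving out a library called 5 to 9 higher and 13 to 21 lower. Over all genes, leaving out a library called 3518 of 12957 to 4918 of 13130 higher and 4224 of 13193 to 5181 of 13130 lower. Under quantile normalization the log2 differences of PARP1 and XRCC6 turned to 0.11 and 0.19. The cause of these changes was not tested. The replicate block left PARP1 uncalled in the libraries labelled KGN (adjusted p = 0.0943) and 0 genes called in those labelled COV434. With the block, the difference for RAD54L was not called. A low spread rests on 3 libraries, and genes near 1 FPKM had few reads.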
